A study of Mus musculus with 2 samples.

Results

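The Mir297, Mir466, Mir467 and Mir669 hairpins are microRNA genes of rodents, most of them packed into an intron of Sfmbt2. Members were chosen by symbol: every gene of the deposited tables whose GENCODE symbol is Mir297, Mir466, Mir467 or Mir669, alone or followed by a letter or a hyphen. This took 69 of 1973 genes, with 6 Mir297, 25 Mir466, 17 Mir467 and 21 Mir669 hairpins. All were kept, also those with no read. The annotation places 59 of them in Sfmbt2 and 10 elsewhere, so the name "Sfmbt2-type" holds by position for 59.

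Small RNA was sequenced from whole forebrains of 2 newborn mice (strain B6NCrl, postnatal day 0), pup 1 and pup 3, which form 1 group. The labels name separate pups under a single donor record, sex was not collected, and no treatment or altered gene is named. There is therefore no contrast between conditions, and each comparison of the pups sets 1 library against another. A whole forebrain is a mixture of cell types, and no value here belongs to a single type.

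Sfmbt2 encodes a Polycomb group protein and is known as an imprinted gene that is read from the paternal copy in extraembryonic tissue. The microRNAs of its intron arose by tandem duplication in rodents, and the cluster is known for its role in growth of the placenta. A microRNA hairpin is cut to a mature strand of about the length of a small RNA read, whose bases 2 to 8 (the seed) pair with target transcripts. Many members of these families are rich in UG and CA repeats, and many copies are close to identical.

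The libraries held 9037087 assigned reads in pup 1 and 7678662 in pup 3. Reads that mapped to several places made up 43.0% and 43.5% of all reads and are in no gene's count. A count of 0 allows up to 0.332 counts per 1000000 assigned reads (CPM) in pup 1 and 0.391 CPM in pup 3, from 3 counts of the total. Intervals and floors cover counting error only. CPM was not scaled by length, because a read spans a mature strand whatever the length of its hairpin. Of 8 forebrain neuronal markers, 7 were in the tables and none was at 0, with summed levels of 29841 and 41032 CPM. The 6 Hox cluster markers, which mark tissue behind the forebrain, summed to 195.7 and 148.5 CPM. Of these 6, 4 had at least 10 reads in both pups, beside 21.9% of all genes, and 1 was at 0 in both.

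The RefSeq sequence table (GRCm38.p6) held entries for 9 members, 8 of them with a mature strand, all outside Sfmbt2. They are printed because they show the repeat letters that many of these hairpins hold, and because Mir466q was the only member outside Sfmbt2 with a read. Capitals mark the seed.

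mmu-miR-466q: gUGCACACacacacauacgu
mmu-miR-466k: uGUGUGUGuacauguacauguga
mmu-miR-466j: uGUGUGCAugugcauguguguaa
mmu-miR-466i-3p: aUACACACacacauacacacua
mmu-miR-467f: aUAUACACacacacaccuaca
mmu-miR-467g: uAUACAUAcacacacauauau
mmu-miR-467h: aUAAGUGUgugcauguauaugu
mmu-miR-669n: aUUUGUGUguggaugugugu

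The 8 strands carried 8 different seeds, so none of them shares a seed with another. The hairpin of Mir466k, below with its mature strand in capitals, shows how far the UG repeat can run on both sides of the strand.

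Mir466k hairpin: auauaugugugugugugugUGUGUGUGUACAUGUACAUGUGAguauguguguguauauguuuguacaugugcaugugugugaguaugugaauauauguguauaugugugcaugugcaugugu

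Over all members, 56 of 69 hairpins (81.2%) held a run of alternating TG or CA of at least 8 bases (TGTGTGTG, GTGTGTGT, CACACACA or ACACACAC, where the last pair is the first read on the other strand). The share was 12.0% over the 1894 genes with a hairpin sequence. Inside Sfmbt2, 47 of 59 held such a run, and elsewhere 9 of 10 did. The families differed: every Mir467 hairpin held such a run, while no Mir297 hairpin did. Mir466l and several Mir669 hairpins also lacked it. The longest run, of 28 bases, was in Mir466q.

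A small number of hairpins held almost all counted reads of these families. Of the 69 members, 10 had at least 10 reads in both pups, here called detected, beside a background of 21.9% over all genes. Another 12 had fewer reads, and 47 had none in either pup. The gap between the classes was wide: the lowest count of a detected member was 21 and the highest count of any other member was 7. All 69 together took 0.2801% of assigned reads in pup 1 (95% Wilson interval 0.2767 to 0.2835) and 0.2207% in pup 3 (0.2174 to 0.2240), a summed level of 2504 ± 420 CPM (SD, n = 2).

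The 4 families contributed unequally to the counted reads, and the family with the most genes held few of them. Reads that fit several copies equally are in no count and are missing from these sums. The Mir467 hairpins summed to 2359 CPM in pup 1 and 1830 CPM in pup 3, and the Mir669 hairpins to 426.9 and 367.8 CPM. The 25 Mir466 hairpins summed to only 7.97 and 4.56 CPM, and the 6 Mir297 hairpins to 6.42 and 4.17 CPM. Thus Mir467 held 84.2% of the members' reads in pup 1 and 82.9% in pup 3, while Mir466 held 0.284% and 0.207%. By gene, 3 of 17 Mir467, 5 of 21 Mir669, 1 of 25 Mir466 and 1 of 6 Mir297 hairpins were detected. The share over all genes was 21.9%, and Mir467 (17.6%), Mir669 (23.8%) and Mir297 (16.7%) were near it, while Mir466 (4.0%) was below it.

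**Figure D1:**
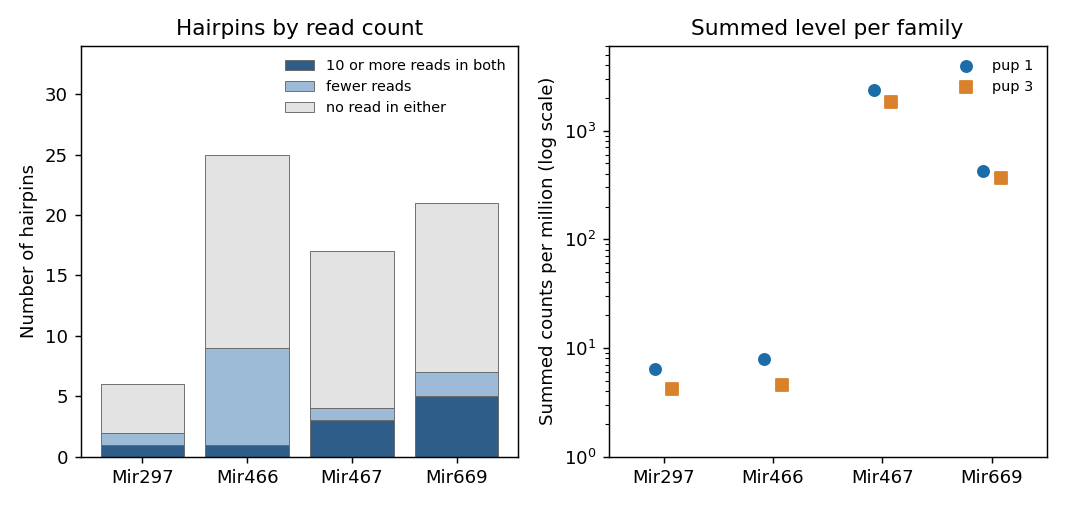
Left, the number of hairpins of each family (vertical axis) with at least 10 reads in both pups, with fewer reads, and with no read in either. Right, the summed level of each family in CPM (log axis), with a circle for pup 1 and a square for pup 3. Mir466 has the most hairpins (25) and Mir467 the highest summed level in both pups.

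The counted Mir467 reads came almost all from Mir467d, Mir467e and Mir467c. Mir467d (ENSMUSG00000077021.2, chromosome 2 from 10507630 to 10507714) had 9639 reads in pup 1 and 6660 in pup 3, or 1067 and 867 CPM, and ranked 106 of 1973 genes by mean CPM. Mir467e (ENSMUSG00000076948.2, from 10505721 to 10505807) had 7615 and 4885 reads, or 843 and 636 CPM. Mir467c (ENSMUSG00000077049.2, from 10473931 to 10474027) had 4068 and 2507 reads, or 450.1 and 326 CPM. Pup 1 was higher than pup 3 for all 3, and the order d, e, c was the same in both pups. The means were 967 ± 141, 739 ± 146 and 388 ± 87.4 CPM (SD, n = 2), so the SDs of Mir467d and Mir467e overlap. Within a library, where no scaling enters, Mir467d had 1.27 times the reads of Mir467e in pup 1 and 1.36 times in pup 3. Mir467e had 1.87 and 1.95 times the reads of Mir467c. Together these 3 hairpins held 84.2% and 82.9% of all member reads.

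The other Mir467 hairpins of Sfmbt2 had almost no counted reads. None of the 10 Mir467a copies had a read in either pup. Mir467b, whose product is known to repress lipoprotein lipase in macrophages, had 1 read in pup 1 and 0 in pup 3. Mir467f, Mir467g and Mir467h, on other chromosomes, had none.

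The counted Mir669 reads came mainly from Mir669o, Mir669l and Mir669c. Some products of the Mir669 family are known for restraining the skeletal muscle program in heart progenitors. That role was not tested here for any hairpin. Mir669o (ENSMUSG00000077086.1, chromosome 2 from 10514300 to 10514395) had 1359 reads in pup 1 and 1195 in pup 3, or 150.4 and 155.6 CPM. Mir669l (ENSMUSG00000076959.1, from 10468971 to 10469068) had 1581 and 950 reads, or 174.9 and 123.7 CPM. Mir669o was nearly level between the pups, while Mir669l was lower in pup 3. Their order therefore differed: Mir669l had 1.16 times the reads of Mir669o in pup 1 and 0.795 times in pup 3. Mir669c (ENSMUSG00000076118.1, from 10509296 to 10509404) had 783 and 555 reads, or 86.6 and 72.3 CPM, below both of them in each pup.

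The rest of the detected members were low. Mir669e (ENSMUSG00000080653.1, from 10467495 to 10467613) had 111 and 94 reads, or 12.3 and 12.2 CPM. Mir669h (ENSMUSG00000080594.1, from 10518155 to 10518279) had 21 and 24 reads, or 2.32 and 3.13 CPM. Among the Mir669 hairpins these 2 lie far below Mir669c, and the remaining 16 had at most 5 reads each in a pup. Mir297a-2 (ENSMUSG00000076983.2, from 10472254 to 10472343) had 58 and 31 reads, or 6.42 and 4.04 CPM, and was the only detected Mir297 hairpin. Mir466n (ENSMUSG00000077991.1, from 10513741 to 10513834) had 48 and 28 reads, or 5.31 and 3.65 CPM, and was the only detected Mir466 hairpin. All 10 detected members lie on the plus strand of chromosome 2 in the intron of Sfmbt2 (GRCm38).

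Among the members with fewer reads, those with the most were at or near the floor. Mir466q (ENSMUSG00000092990.1, chromosome 3 from 28419943 to 28420018, in an intron of Tnik) had 7 and 3 reads, and Mir669f had 3 and 5. Mir466b-3 had 6 and 1 reads. Mir466d had 3 and 0, and Mir466h, whose product is linked to cell death under nutrient depletion, had 2 and 1. Mir466l, whose product is linked to interleukin 10 in macrophages, had 1 and 2 reads and so tied with Mir466d and Mir466h on summed reads. Their order cannot be read at this depth.

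**Figure D2:**
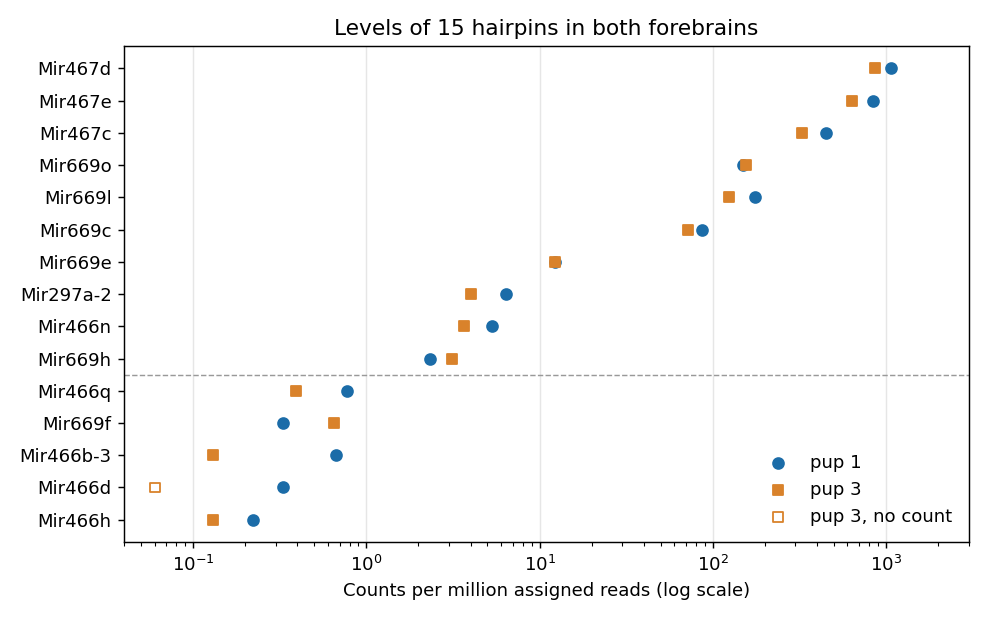
Level of the 10 detected hairpins (above the dashed line) and of 5 others with few reads, in CPM on a log axis; Mir466l, tied with Mir466d and Mir466h on summed reads, is not drawn. A circle stands for pup 1 and a square for pup 3. The open square marks Mir466d, with no read in pup 3, drawn at the left edge. Mir467d, Mir467e and Mir467c stand highest in both pups, at 326 CPM or more.

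The counted reads lay at both ends of the Sfmbt2 array, with few in its middle. Reads that map to several places are in no count, so the source of those reads is not known. The gene Sfmbt2 occupies chromosome 2 from 10370510 to 10595253 (plus strand), and a single intron from 10461473 to 10523944 (62.5 kb) holds all 59 hairpins, on the strand of the gene. They span 51.6 kb, from 10466663 to 10518279. The longest stretch of neighbouring members that were not detected runs from Mir669a-3 to Mir466b-3, over 29.2 kb (10474433 to 10503645). It holds 26 members, of which 23 had no read, with 7 reads in all in pup 1 and 2 in pup 3. The 13 members before it held 5823 and 3587 reads, 23.0% and 21.2% of the members' reads. The 20 members after it held 19474 and 13351 reads, 76.9% and 78.8%. The limits of this stretch were set by the counts themselves, so its low counts are a description.

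The middle stretch is also where the hairpins are copies of each other. For each hairpin, every window of 20 nucleotides was looked up on both strands of the 2202 annotated microRNA hairpins, and a window found in no other hairpin was called unique. The genome outside annotated hairpins was not searched. In the middle stretch, 19 of 26 members had no unique window, and the median share of unique windows was 0%. Over the 33 members before and after it, the median was 41.5%. Exact copies were common, with 15 members in 5 groups of identical hairpins, such as Mir467a-2, Mir467a-4, Mir467a-5, Mir467a-7, Mir467a-8 and Mir467a-9. The annotation names another 12 Mir466 and Mir669 hairpins that have no row in the tables, and these were not analysed here.

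**Figure D3:**
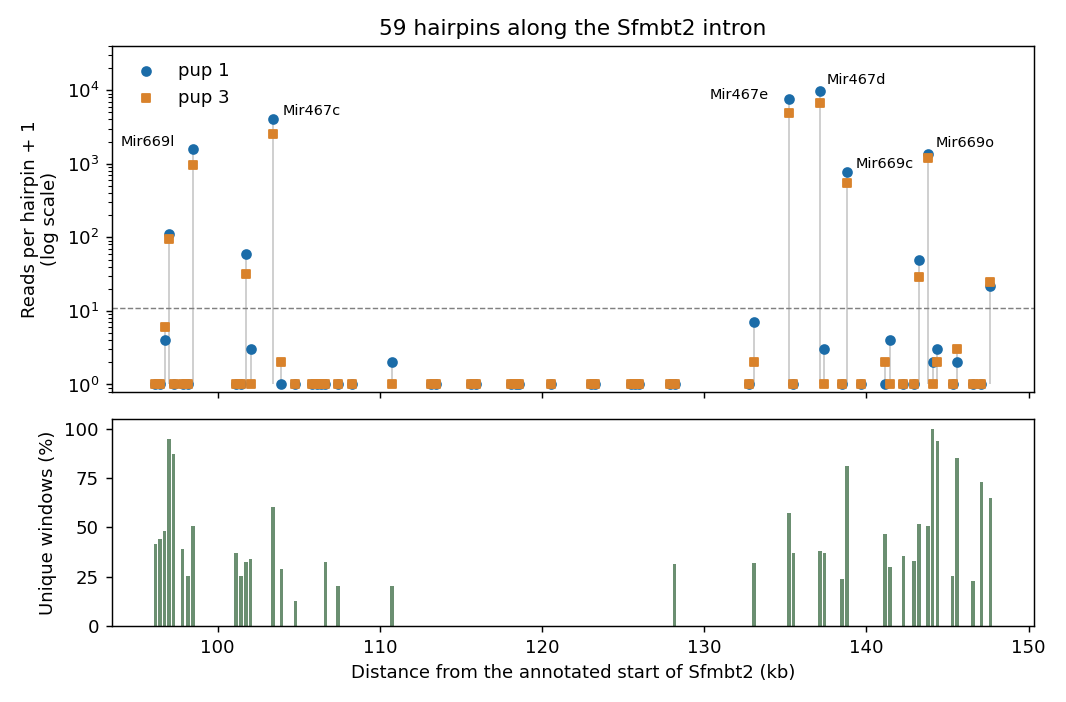
The 59 hairpins by distance from the annotated start of Sfmbt2 (kb). The upper panel gives reads per hairpin plus 1 on a log axis, with a circle for pup 1, a square for pup 3 and a dashed line at 10 reads, and the lower panel the share of windows of 20 nucleotides found in no other annotated hairpin. Mir669l and Mir467c stand before, and Mir467e, Mir467d, Mir669c and Mir669o after, a 29.2 kb stretch with 7 reads in pup 1 and 2 in pup 3, where most bars are at 0%.

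Almost every member had a stretch in common with another hairpin, and the share of unique windows differed with detection. Of the 69 members, 67 (97.1%) shared at least 20 nucleotides with another hairpin, against 49.0% of the 1894 genes with a sequence. The 20 members with no unique window had no read in either pup. Of the 47 members with some unique windows, 10 were detected, and of the 2 in which every window was unique, Mir466g and Mir669n, none was. Among all other genes, 1 of 238 with no unique window was detected (Gm23935, with 139 and 89 reads), 83 of 624 with some, and 339 of 963 with unique windows only. The middle class pools unlike genes. With above 25% to 75% unique windows, 8 of 33 members and 5 of 275 other genes were detected. Above 75% and below 100%, it was 2 of 9 members and 78 of 220 other genes. For members with no unique window, silence and loss of reads that map to several places cannot be told apart. The same holds for reads from the shared windows of the other members.

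Unique windows did not go with reads in every member. Among the members in Sfmbt2, 18 had unique windows and yet no read, with up to 87.2% of their windows unique in Mir669b. The detected members had from 32.4% unique windows in Mir297a-2 to 95 of 100 windows in Mir669e, with a median of 54.7%, while the 49 not detected in Sfmbt2 ranged from 0% to 100% with a median of 24.1%. Mir467d, the most abundant, had 37.9%. Outside Sfmbt2, 9 of the 10 members had unique windows and no read, among them Mir466i in an intron of Cdk13, on the strand opposite to that gene.

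Inside Sfmbt2, the Mir467 hairpins differed in the place of their unique windows. With the windows of a hairpin split at their midpoint into a first and a second part, Mir467d had 19 unique windows in its first part, Mir467e 20 and Mir467c 17. All 11 other Mir467 hairpins of Sfmbt2 had none in the first part, and Mir467b had 11 in the second part. Outside Sfmbt2, Mir467f, Mir467g and Mir467h had 50, 24 and 39 unique windows in the first part and no read. Over all families, 9 of 10 detected members and 21 of 49 undetected ones in Sfmbt2 had a unique window in the first part. Since each count pools both arms of a hairpin, the arm that gave the reads is not known from these tables.

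The other microRNA genes of the same intron had next to no counted reads, and reads that map to several places are missing here too. The tables hold 48 further hairpins inside Sfmbt2 with predicted-gene names, and none was detected: they summed to 6 reads in pup 1 and 9 in pup 3. Reads on the opposite strand of the 69 members numbered 0 in both pups. Over all genes, 2.69% and 1.91% of assigned reads lay opposite to their gene, which is a share of reads and not of genes. The share of other genes with no opposite read was not counted. Other clusters known from embryo, placenta or testis hold fewer hairpins and were lower than the Sfmbt2 members in summed level. The 7 measured hairpins of the Mir290 to Mir295 cluster of embryonic and placental cells summed to 3.87 and 3.13 CPM, with none detected. The 20 measured hairpins of the X-linked rodent testis cluster summed to 11.8 and 12.8 CPM, and 3 (Mir201, Mir547 and Mir741) of the 20 were detected. The 59 in Sfmbt2 summed to 2800 and 2206 CPM, with 10 of them detected.

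Between the pups, the abundant Mir467 hairpins and Mir669l were slightly lower in pup 3 and Mir669o was slightly higher. Counts were compared by a two-sided exact binomial test with Benjamini-Hochberg adjustment over 460 genes, on libraries scaled by the TMM factors of edgeR. This sets 1 library against another, so the p-values speak of counting error and not of the spread between animals. Of the 10 members tested, 4 were called lower, 1 higher and 5 not, beside a background of 32.8% lower and 30.2% higher over all genes tested. With 10 members tested, these counts show nothing particular to them. Marker sets differed between the same pups. The median log2 ratio was 0.63 for the 6 detected forebrain neuronal markers, with a range of 0.44 to 1.75. For the 4 detected Hox cluster markers it was -0.79, with a range of -1.32 to 0.17. The neuronal list includes genes with several copies, and reads that map to several places are missing from these marker sets too. The part of these marker sets in the members' ratios was not tested. In bulk tissue, fewer cells of a type and less RNA per cell cannot be told apart.

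The ratio of pup 3 over pup 1 was 0.833 for Mir467c, a log2 ratio of -0.26 (95% exact interval -0.34 to -0.19, adjusted p = 1.3e-12 by the exact test). Mir467e had -0.21 (-0.26 to -0.15) and Mir467d -0.10 (-0.14 to -0.05), with adjusted p of 1.69e-14 and 3.92e-05 in the exact test. The 3 Mir467 hairpins thus differed in the same direction, by 0.26 at most on the log2 scale under TMM. Under total counts their ratios were larger, at -0.46 for Mir467c, -0.41 for Mir467e and -0.30 for Mir467d. Mir669l had -0.30 (-0.42 to -0.18, exact test adjusted p = 7.95e-07), and -0.50 under total counts. Mir669o had 0.25 (0.14 to 0.36, exact test adjusted p = 2.91e-05), the only member called higher. Under scaling by total counts, Mir669o was no longer called (0.05, adjusted p = 0.49 by the exact test) and Mir669c was called lower (-0.26, adjusted p = 0.00191 by the exact test). That gave 5 members lower and 0 higher, beside a background of 44.8% lower and 21.3% higher. The same scaling moved the median of all detected genes from 0.00 to -0.20.

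The 5 members not called spanned both signs, with intervals that were wide for all but Mir669c. Mir669c had a log2 ratio of -0.06 (-0.22 to 0.10), while Mir669e had 0.20 (-0.22 to 0.60) and a value of -0.0037 under total counts. Mir297a-2 had -0.46 (-1.15 to 0.18), Mir466n -0.33 (-1.07 to 0.36) and Mir669h 0.62 (-0.28 to 1.55). With 21 to 111 reads in pup 1, differences of the size seen for Mir467d were not detectable in the lowest 4. The interval of Mir669c also held the ratio of Mir467d, -0.10. The median log2 ratio of the 10 detected members was -0.15.

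**Figure D4:**
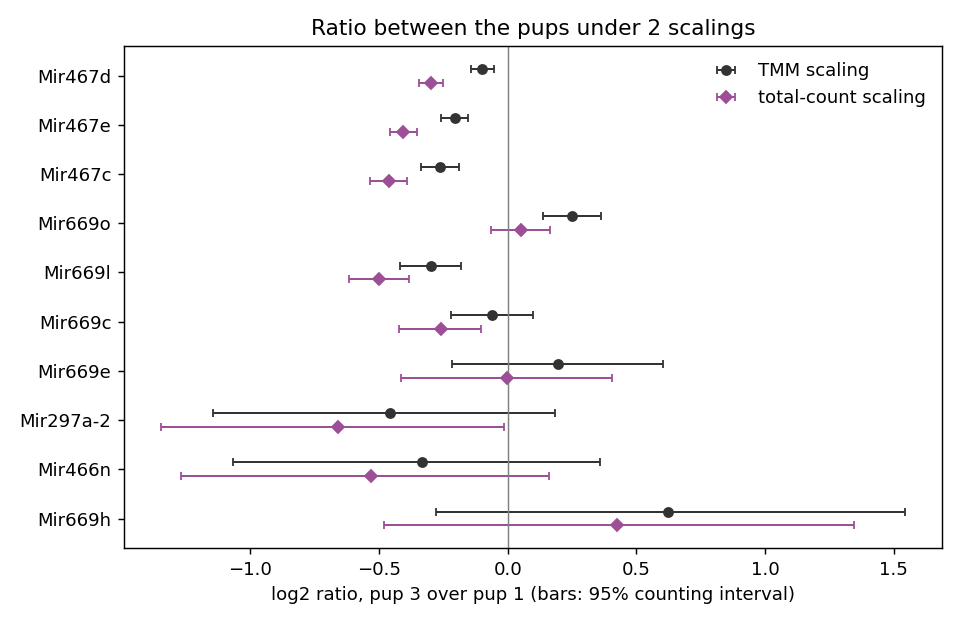
log2 ratio of pup 3 over pup 1 for the 10 detected hairpins, in order of mean level, with 95% exact counting intervals. Circles use TMM scaling and diamonds total counts, which shift every ratio down by the same amount. Under both scalings the intervals of Mir467d, Mir467e, Mir467c and Mir669l lie below 0, and that of Mir669o lies above 0 under TMM only.

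The composition of the members' reads, which does not depend on scaling, was close between the pups. Mir467d held 38.1% of member reads in pup 1 (95% Wilson interval 37.5 to 38.7) and 39.3% in pup 3 (38.6 to 40.0). Mir467e held 30.1% (29.5 to 30.7) and 28.8% (28.2 to 29.5), and Mir467c held 16.1% (15.6 to 16.5) and 14.8% (14.3 to 15.3). Mir669o held 5.37% (5.10 to 5.65) and 7.05% (6.68 to 7.45), and Mir669l held 6.25% (5.95 to 6.55) and 5.61% (5.27 to 5.96). The intervals of Mir669o did not overlap between the pups, nor did those of Mir467c or, by a narrow margin, Mir467e, while those of Mir467d and Mir669l did. These intervals cover counting error within each library only.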

How the data were processed

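The authors deposited whole-number read counts per microRNA gene for each pup, made on mm10 with annotation M4 per the notes in the file headers. No source used here names the aligner or the counter. Of 3 unnamed count columns, the first equals the sum of the other 2 in all 1973 genes and was used. The others were read as the sense and the opposite strand. The 4 tallies that name no gene stayed out of library sizes and tests: reads mapping to several places, unmapped reads (14.9% and 14.4%), reads in no gene (1.85% and 1.26%) and ambiguous reads. Symbols, positions and hairpin sequences came from GENCODE M21 on GRCm38 by identifier (1894 of 1973 matched). Mature strands came from RefSeq.

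CPM is the count per 1000000 assigned reads. Scaling used TMM of edgeR 4.0.16 (factors 1.07 and 0.933). Log2 ratios had 0.5 added to counts, and genes with a total of at least 20 were tested at an adjusted p of 0.05. As alternatives, scaling by DESeq2 1.42.0 or by total counts was tried, with other minimums, the sense column, each pup alone and windows of 18 or 22 nucleotides. The test was run on simulated counts that held counting error only, so that check says nothing of the spread between animals. Versions were R 4.3.3 and Python 3.11.15.

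The members, lists and tests were chosen with earlier results of these data known. The text names every member with at least 10 counts in both pups and the 5 others with the most summed counts. Ties at 3 counts were broken by symbol, which left out Mir466l. Mir466l, Mir201, Mir547, Mir741, Mir467a, Mir467b, Mir467f, Mir467g, Mir467h, Mir466g, Mir466i, Mir669b, Mir669n and Gm23935 were named after their values were seen.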

Additional observations from a re-analysis of the deposited data

How the results depend on the processing

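The number of detected members was 10 at a minimum of 5, 10 or 20 counts, on the sense column and in each pup alone. The summed level was 2504 CPM, from 2207 to 2801 CPM with 1 pup left out, 2564 CPM on the sense column and 2489 CPM with TMM library sizes. Per 1000000 tallied reads of every kind it was 1014, because that total is larger. Under total counts, 0 members were called higher and 5 lower, and Mir669e changed sign to -0.0037, where it was not called under any scaling. The other settings for calls gave 1 higher and 4 lower. The median log2 ratio of detected members ranged from -0.35 under total counts to -0.14 under DESeq2 size factors. Members sharing a stretch numbered 67 or 68, and those with no unique window 20, at 18, 20 and 22 nucleotides. The window settings of the latter were added after the data were seen. No paired analysis was possible because both samples form 1 group. Calls between pups could not be repeated with a pup left out.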
